A study of Mus musculus with 6 samples.

Results

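The 10 genes described here encode the IgE receptor, the histamine-forming enzyme, the granule proteases and the IL-33 receptor of mast cells and basophils. They were chosen by symbol, with earlier results of these data known, from the 24062 genes of the deposited count table. All 10 were present and tested. The shares below describe the members and are not a test of them as a set. Leaving aside Tpsb2, 6 of 9 rose in the Ints11 KO libraries and 0 fell, while of all 15742 genes tested 16.0% rose and 19.9% fell. The 6 were Hdc (2.12-fold), Cpa3 (1.74-fold), Prss34 (1.62-fold), Ms4a2 (1.60-fold), Fcer1a (1.51-fold) and Mcpt8 (1.41-fold). The tryptase gene Tpsb2 also passed the test, but it stayed below 1 CPM in every library and entered the test through its KO libraries alone. Cma1, Mcpt4 and Il1rl1 did not pass the test.

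Mast cells and basophils are the blood-derived cells that carry the high-affinity IgE receptor. When antigen cross-links IgE on that receptor, they release granules with histamine, proteoglycan and proteases, and make lipid mediators and cytokines. Mast cells finish their development in tissues and depend on Kit, while basophils complete theirs in the marrow. Both arise from marrow progenitors that already express genes such as Cpa3 and the receptor subunits, so a Kit sort can hold these precursors, and the counts do not tell them from mature cells. In bulk libraries fewer or more cells of a type cannot be told apart from less or more RNA per cell.

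The libraries came from Kit-positive bone marrow cells of C57BL/6 mice, 1 mouse per library, and the series' design text adds that they lacked lineage markers. The KO group comprised 3 mice with both Ints11 alleles floxed and an Mx1Cre transgene (KO_339, KO_340 and KO_345), in which the interferon-inducible Mx1 promoter drives Cre in blood cells and in other tissues. The WT group comprised 3 littermates (WT_341, WT_343 and WT_344). Cells of both groups were collected 4 days after poly(I:C), an RNA mimic that induces interferon, and the sources used here do not say whether WT mice carried Cre or how old the mice were. INTS11 is the RNA-cleaving subunit of Integrator, and the comparison asks which transcripts differ between marrow progenitors with and without its deletion.

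Library totals ran from 124074531 to 166860739 counts. Ints11, listed under its older symbol Cpsf3l, was 81.66 ± 9.59 CPM (the count relative to the TMM-scaled library total) in WT and 60.96 ± 3.08 CPM in KO libraries (SD, n = 3 each). No KO library reached the lowest WT library. Its log2 change was -0.42 ± 0.10 (SE; edgeR adjusted p = 0.0174). Which exons were floxed is not stated, and reads over the remaining exons still count, so the residual level does not measure the deletion. The Ints11 call was lost without KO_340 (edgeR adjusted p = 0.0557) and without KO_345 (edgeR adjusted p = 0.0541). The sorting marker Kit was at 199 to 221 CPM in WT and 220.3 to 238 CPM in KO libraries, without passing the test (edgeR adjusted p = 0.269). Xist and Y-linked counts showed WT_341, KO_339 and KO_340 to come from males and the other 3 from females. With sex in the model 6 of the 10 genes rose, Tpsb2 among them, and Mcpt8 no longer passed (edgeR adjusted p = 0.052).

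Most of these genes have a GATA hexamer close to their start, the sequence bound by GATA1 and GATA2, which are needed for mast cell and basophil development. RefSeq start sites on GRCm38.p6 were found for 9 members, with Tpsb2 not among them. Windows from 250 bases before to 50 after the start were searched on both strands for the words AGATAA or AGATAG, and also for TGATAA or TGATAG, each match counted by its starting base. Of the 9 first windows, 8 held at least 1 such match and 2 held at least 2, against 29.8% and 7.77% of all 32851 windows of that length. The window of Hdc, 1 of the 8, runs from 126618629 to 126618928 on chromosome 2. It lies inside the GENCODE gene, which starts at 126619299 on the reverse strand, so its match is not before that start. The E-box CANNTG was in 7 of 9 windows and in 72.3% of all windows. Printed below, 5′ to 3′ on the strand of the gene with the hexamers in capitals, are the bases before the RefSeq and GENCODE starts for both receptor subunits, the 3 proteases above 5 CPM and Il1rl1. Fcer1a is chr1:173227230-173227479 (reverse strand), Ms4a2 chr19:11623720-11623969 (reverse), Cpa3 chr3:20242182-20242431 (reverse), Mcpt8 chr14:56085274-56085447 (reverse), Prss34 chr17:25298144-25298393 (forward) and Il1rl1 chr1:40429320-40429569 (forward).
Fcer1a: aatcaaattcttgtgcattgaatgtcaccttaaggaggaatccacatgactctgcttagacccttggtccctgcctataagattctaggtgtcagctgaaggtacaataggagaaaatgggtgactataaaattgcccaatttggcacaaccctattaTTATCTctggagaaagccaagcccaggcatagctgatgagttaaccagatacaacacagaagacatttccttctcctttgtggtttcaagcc
Ms4a2: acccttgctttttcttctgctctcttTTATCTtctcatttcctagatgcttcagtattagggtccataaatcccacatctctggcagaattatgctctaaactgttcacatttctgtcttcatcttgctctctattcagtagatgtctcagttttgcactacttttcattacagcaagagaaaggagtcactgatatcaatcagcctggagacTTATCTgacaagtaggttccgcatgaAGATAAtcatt
Cpa3: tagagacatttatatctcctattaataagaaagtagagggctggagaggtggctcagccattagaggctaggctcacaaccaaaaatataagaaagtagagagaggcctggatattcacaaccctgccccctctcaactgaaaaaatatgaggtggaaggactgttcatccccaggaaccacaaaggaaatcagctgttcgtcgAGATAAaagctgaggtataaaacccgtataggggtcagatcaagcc
Mcpt8: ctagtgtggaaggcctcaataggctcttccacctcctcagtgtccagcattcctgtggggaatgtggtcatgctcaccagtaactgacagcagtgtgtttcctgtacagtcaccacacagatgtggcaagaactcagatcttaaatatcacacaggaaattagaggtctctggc
Prss34: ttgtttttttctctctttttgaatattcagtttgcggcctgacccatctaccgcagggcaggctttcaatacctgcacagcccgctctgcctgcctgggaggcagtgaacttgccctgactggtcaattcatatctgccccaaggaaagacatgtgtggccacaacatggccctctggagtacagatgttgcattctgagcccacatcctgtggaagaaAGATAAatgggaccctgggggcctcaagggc
Il1rl1: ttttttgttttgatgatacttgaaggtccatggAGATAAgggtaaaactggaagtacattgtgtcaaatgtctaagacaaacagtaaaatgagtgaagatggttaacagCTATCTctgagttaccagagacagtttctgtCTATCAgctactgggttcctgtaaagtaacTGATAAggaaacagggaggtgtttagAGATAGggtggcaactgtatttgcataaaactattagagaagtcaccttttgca
The hexamer of Prss34 began 31 bases and that of Cpa3 46 bases before the start. Ms4a2 had 3 hexamers, of which the nearest began 11 bases before the start. Il1rl1 had 5 hexamers, the most of the 9 windows, and did not pass the test. Mcpt8 had none in its window, of which 174 bases lie before both annotated starts, and rose. A match describes these letters and does not show binding.

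Both subunits particular to the IgE receptor of these cells rose. Fcer1a (chromosome 1, 173221284 to 173227214, reverse strand) encodes the alpha chain that binds IgE. It held 6.30, 6.09 and 5.35 CPM in WT_341, WT_343 and WT_344, and 10.1, 8.09 and 8.55 CPM in KO_339, KO_340 and KO_345. The groups did not overlap, and its log2 change was 0.59 ± 0.14 (SE; edgeR adjusted p = 0.0184). Ms4a2 (chromosome 19, 11615523 to 11623719, reverse strand) encodes the signal-amplifying beta chain. Its levels were 28.0, 28.1 and 23.7 CPM in the WT and 51.5, 44.0 and 32.4 CPM in the KO libraries, in the same order of mice. KO_339 was highest and KO_345 lay closest to WT, without overlap, and the log2 change was 0.68 ± 0.17 (SE; edgeR adjusted p = 0.0214). Fcer1a no longer passed without WT_344 (log2 change 0.52) or KO_339 (0.52), nor did Ms4a2 without WT_344 (0.60), KO_339 (0.55) or KO_340 (0.68).

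The plot of member levels by library shows both receptor subunits beside the other genes. Of all genes tested, 35.9% were called in either direction. A gene was called when its Benjamini-Hochberg adjusted p from the quasi-likelihood test of edgeR was under 0.05. Of the 6 members called higher, 2 (Hdc and Prss34) still passed without WT_344 or without KO_339, and 4 without WT_343. Every KO library lay above every WT library for 6 of the 9 members other than Tpsb2 and for 25.6% of all genes tested, and below every WT library for 0 of the 9 and 28.4% of genes. The median log2 change was 0.69 over the 9 members (0.75 with Tpsb2) and 0.01 over all genes tested. Among the 10187 genes with a mean of at least 5 CPM it was -0.13, and 10.7% of those were called higher.

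**Figure D1:**
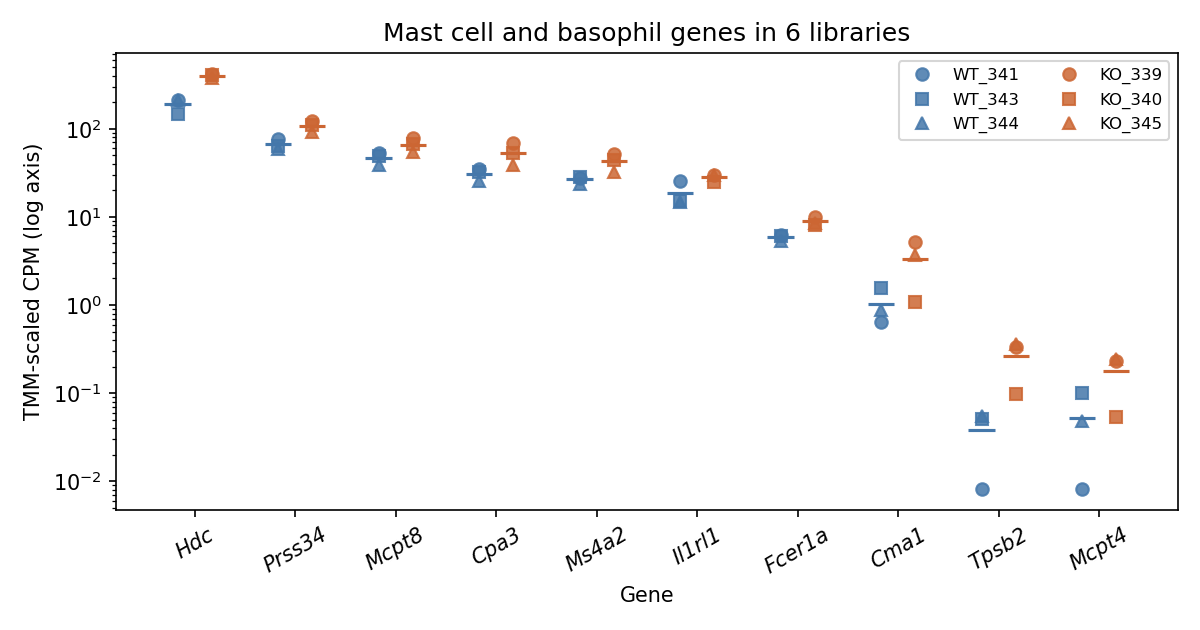
TMM-scaled CPM (log axis) of the 10 genes in each library, with WT in blue, KO in orange and a short line at each group mean. Hdc is highest at 146 to 213 CPM in WT and 378 to 422 CPM in KO libraries, while Tpsb2 and Mcpt4 lie below 1 CPM in all 6.

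The third receptor chain did not pass. Fcer1g, the gamma chain that other Fc receptors of myeloid cells also use, was at 98.7, 67.7 and 76.0 CPM in WT and 126, 96.0 and 114 CPM in KO libraries (log2 change 0.47 ± 0.16, SE; edgeR adjusted p = 0.0515). Of the 17 listed genes of this receptor's signalling, all tested, 3 rose and 4 fell, with a median log2 change of 0.01. Over all genes tested these shares were 16.0% and 19.9%, near those of the list. Lat, the scaffold that assembles the signalling complex, rose 2.13-fold from 3.71 to 3.98 CPM in WT to 6.62 to 10.2 CPM in KO libraries. The adaptor genes Lcp2 (1.31-fold) and Grap2 (1.68-fold) rose as well. Btk, a kinase that activates phospholipase C gamma, fell by 0.42 on the log2 scale, and Gab2, Vav1 and the phosphatase gene Ptpn6 fell by 0.26, 0.24 and 0.29. Upper-quartile factors, library totals only and a stricter filter (1 CPM or more in 3 libraries) each gave 6 higher and 1 lower. The counts became 1 and 1 without WT_344, KO_339 or KO_345, 2 and 2 without WT_343, and 4 and 1 without KO_340. The calls of Lcp2 were lost without WT_344, KO_339 or KO_345, and those of Grap2 without WT_343, WT_344, KO_339 or KO_345.

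Hdc showed the largest change of the members above 5 CPM. It encodes histidine decarboxylase, which makes histamine, and lies on chromosome 2 (126593667 to 126619299, reverse strand). WT libraries held 213, 146 and 211 CPM and KO libraries 422, 405 and 378 CPM, a gap of 166 CPM between the nearest libraries. Its log2 change was 1.08 ± 0.15 (SE; edgeR adjusted p = 0.00404). Hdc passed under all 13 alternatives, with log2 changes from 0.92 to 1.21. It supplied 42.7% to 55.5% of the members' summed CPM in WT and 53.6% to 59.2% in KO libraries. Hdc is also known to be expressed in other myeloid cells, so its level is not specific to mast cells and basophils. Slc18a2, the vesicle transporter that loads histamine and serotonin into granules, rose from 39.8 to 41.3 CPM in WT to 51.8 to 60.4 CPM in KO libraries (1.38-fold, edgeR adjusted p = 0.00791).

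Mcpt8 and Prss34 are the proteases by which mouse basophils are recognised. Prss34 (chromosome 17, 25298394 to 25300165, forward strand), which encodes mast cell protease 11, was at 77.7, 63.4 and 59.5 CPM in WT and 122, 109.5 and 92.8 CPM in KO libraries. No KO library reached down to a WT library, the log2 change was 0.69 ± 0.13 (SE; edgeR adjusted p = 0.00992), and it passed under all 13 alternatives. Mcpt8 (chromosome 14, 56082166 to 56085273, reverse strand) held 52.7, 49.2 and 39.3 CPM in WT and 78.3, 66.7 and 54.2 CPM in KO libraries. KO_345 lay only 1.51 CPM above WT_341, and the log2 change of 0.50 ± 0.16 (SE) was the smallest of the 10 (edgeR adjusted p = 0.0448). The Mcpt8 call was lost under 6 of 13 alternatives: no low-count filter (log2 change 0.48), sex as a covariate (0.38), and without WT_343 (0.52), WT_344 (0.38), KO_339 (0.39) or KO_340 (0.52).

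Cpa3 encodes carboxypeptidase A3, a granule exopeptidase of mast cells, basophils and their progenitors (chromosome 3, 20215620 to 20242181, reverse strand). It was at 34.6, 32.0 and 25.4 CPM in WT and 68.6, 52.6 and 38.9 CPM in KO libraries. KO libraries differed more among themselves (highest over lowest 1.76) than WT libraries (1.36), and did not overlap with them. The log2 change was 0.80 ± 0.21 (SE; edgeR adjusted p = 0.0246). Without WT_343 (log2 change 0.83), WT_344 (0.67), KO_339 (0.61) or KO_340 (0.84) the gene no longer passed. Cpa3 and Mcpt8 each contain an annotated microRNA gene (Mir7007 and Mir6949) on their own strand.

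**Figure D2:**
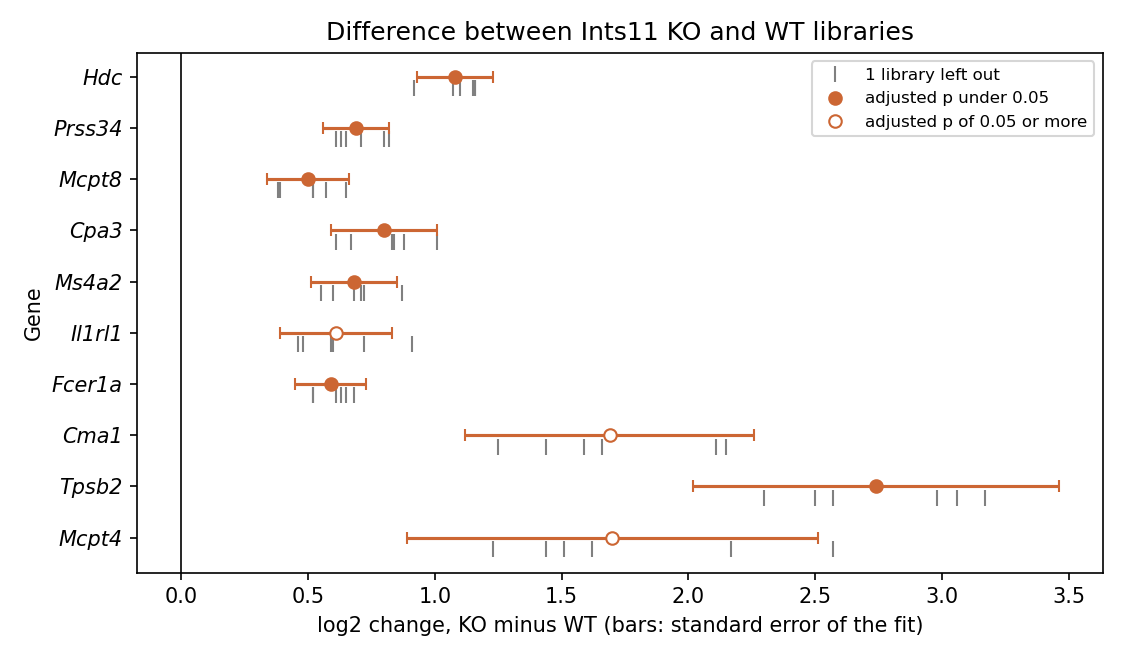
log2 change of KO minus WT for each gene (dots, with bars for the standard error of the fit; filled where the adjusted p was under 0.05) and the values with 1 library left out (grey ticks). Every tick lies to the right of 0, from 0.38 for Mcpt8 to 3.17 for Tpsb2.

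Genes of mature connective tissue mast cells were scarce and set apart by mouse. Cma1 encodes the chymase also called mast cell protease 5 (chromosome 14, 55941451 to 55944675, reverse strand). It was at 0.649, 1.54 and 0.887 CPM in WT and 5.24, 1.08 and 3.65 CPM in KO libraries. KO_339 and KO_345 were above every WT library, while KO_340 lay within the WT range. Its log2 change of 1.69 ± 0.57 (SE) missed the threshold (edgeR adjusted p = 0.0533). Cma1 passed with upper-quartile factors (log2 change 1.83), library totals only (1.80), DESeq2 (1.70) and without KO_340 (2.15).

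Tpsb2 encodes the tryptase also called mast cell protease 6 (chromosome 17, 25366305 to 25369098, forward strand). It had 1, 8 and 8 counts in the WT and 49, 13 and 48 counts in the KO libraries. In CPM with exact 95% Poisson intervals, which cover counting error only, KO_339 held 0.336 (0.248 to 0.444), KO_345 0.360 (0.265 to 0.477) and KO_340 0.0986 (0.0525 to 0.169). WT_344 held 0.0550 (0.0238 to 0.108), so the interval of KO_340 overlapped that of a WT library. The log2 change was 2.74 ± 0.72 (SE; edgeR adjusted p = 0.0241). Tpsb2 passed the low-count filter through KO libraries alone, with 0 WT and 3 KO libraries over it, so a tested Tpsb2 was bound to be higher in KO and its call is no support for a direction. The call was lost without WT_343 (log2 change 2.98), WT_344 (3.06), KO_339 (2.57) or KO_345 (2.50).

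Mcpt4, the chymase mast cell protease 4 (chromosome 14, 56059629 to 56062313, reverse strand), had 1, 16 and 7 counts in WT and 34, 7 and 33 counts in KO libraries. KO_340 (0.0531 CPM) lay between WT_344 (0.0482) and WT_343 (0.101), and KO_339 (0.233) and KO_345 (0.247) lay above all WT libraries. The log2 change of 1.70 ± 0.81 (SE) did not pass (edgeR adjusted p = 0.137), and passed under none of 12 alternatives. All 3 genes were thus high in KO_339 and KO_345 and low in KO_340. Some markers of other cell types did the same. In KO_339, KO_340 and KO_345 the megakaryocyte marker Ppbp held 12.3, 2.20 and 11.6 CPM and the stem cell marker Slamf1 6.53, 2.34 and 6.11 CPM. The pattern was therefore not particular to Cma1, Tpsb2 and Mcpt4. Shared reads touch them little: of the 75-base words in their annotated transcripts, 2.51% for Mcpt4 (with Cma2), 1.67% for Cma1 and 0 for Tpsb2 recur in other genes.

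Cma1, Mcpt4 and Mcpt8 lie in the chymase locus of chromosome 14, a cluster of related serine protease genes, with start sites spread over 140.6 kb. Next after Mcpt8 among the listed genes, 157.9 kb from Cma1, is Ctsg, the cathepsin G gene of granulocyte progenitors. Ctsg fell from 1626 to 2416 CPM in WT to 645 to 994 CPM in KO libraries (log2 change -1.27 ± 0.21, SE; edgeR adjusted p = 0.00596), so neighbours in the cluster moved in opposite directions. Gzmb, the granzyme B gene at its far end, held 3.62, 6.66 and 3.31 CPM in WT and 9.58, 5.41 and 11.7 CPM in KO libraries, and did not pass (edgeR adjusted p = 0.0679). Gzmb passed with upper-quartile factors, sex as a covariate, DESeq2, and without WT_343 or KO_340. Gzmc also did not pass (edgeR adjusted p = 0.544). The mucosal mast cell proteases Mcpt1 and Mcpt2 had 13 and 18 counts over all 6 libraries and were not tested, as were 6 other listed genes of the cluster.

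Prss34 and Tpsb2 lie 67.9 kb apart in the tryptase locus of chromosome 17. Between them are Prss28, Prss29 and Tpsab1, another mouse mast cell tryptase gene. Tpsab1 had 3 counts over all 6 libraries and Prss29 had 1. Prss28 was at 0.284, 0.240 and 0.124 CPM in WT and 0.500, 0.470 and 0.382 CPM in KO libraries, without overlap, but did not pass (edgeR adjusted p = 0.0627). It passed with upper-quartile factors, limma-voom and without WT_341. Prss30 and Prss33, whose start sites lie at -1317.8 and -1462.3 kb relative to Prss34, did not pass either (edgeR adjusted p = 0.297 and 0.525). The plot of both loci sets these levels side by side.

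**Figure D3:**
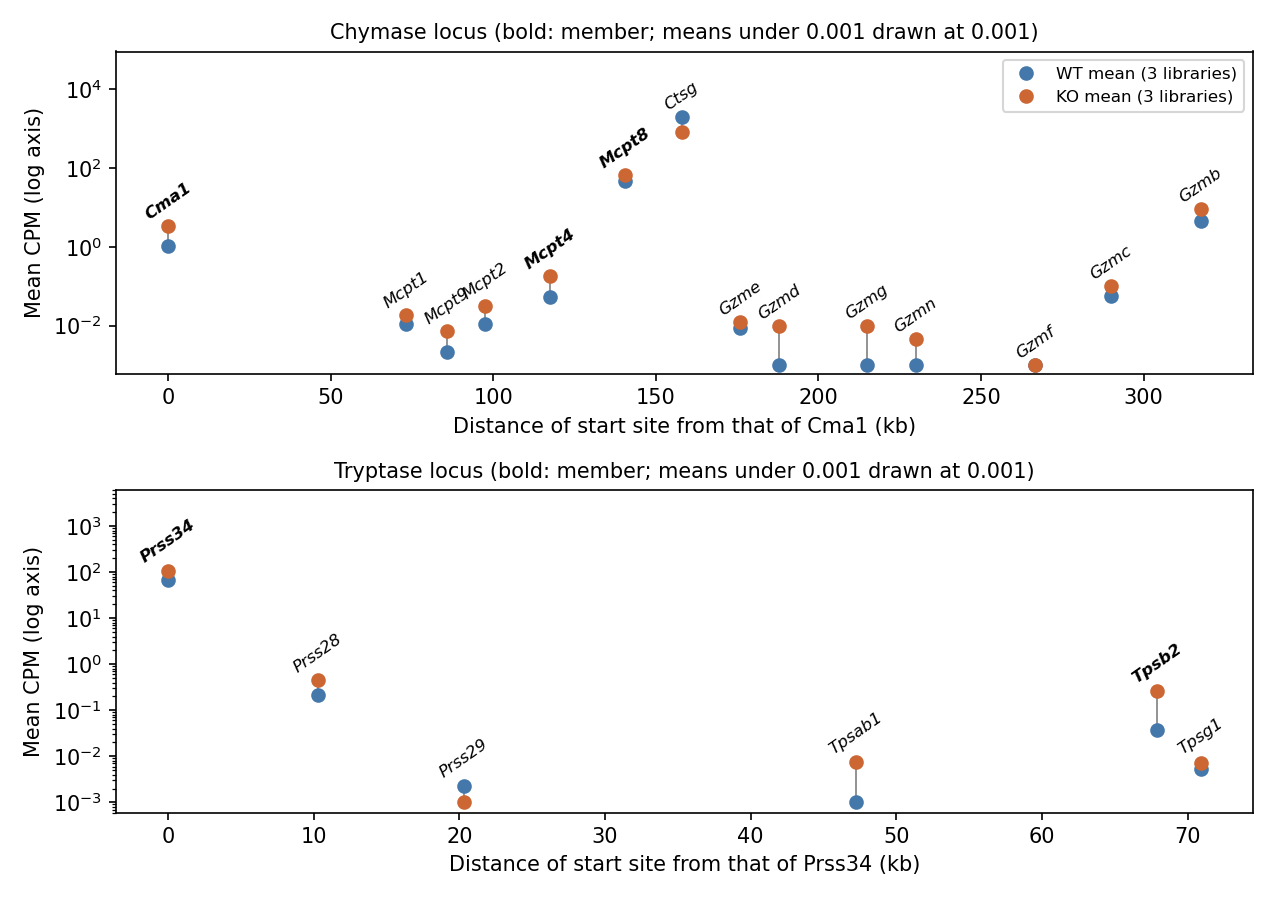
Mean CPM (log axis) of WT (blue) and KO (orange) libraries against the distance of each gene's start site from that of Cma1 (upper panel) or Prss34 (lower panel), in kb. Mcpt8 (47.06 and 66.41 CPM) lies beside Ctsg, the gene with the highest level of the cluster, and most genes around them are near 0. Prss30 and Prss33 lie outside the frame.

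Il1rl1 encodes ST2, the receptor for IL-33, an alarm cytokine that activates mast cells and basophils (chromosome 1, 40429570 to 40465415, forward strand). It was at 25.6, 15.2 and 14.7 CPM in WT and 29.9, 24.9 and 29.9 CPM in KO libraries. WT_341 lay above KO_340, so the groups overlapped, and the log2 change of 0.61 ± 0.22 (SE) did not pass (edgeR adjusted p = 0.0640). Il1rl1 passed with upper-quartile factors (log2 change 0.74), limma-voom (0.67), DESeq2 (0.62) and without WT_341 (0.91). Its partner chain Il1rap had a log2 change of 0.00 ± 0.10 (SE; edgeR adjusted p = 0.987).

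The genes beside Il1rl1 belong to the same receptor family. Il18r1, whose start site lies 36 kb away and which encodes the IL-18 receptor, rose from 3.90 to 10.4 CPM in WT to 20.4 to 22.8 CPM in KO libraries (3.08-fold, edgeR adjusted p = 0.0101). Il1r2, the IL-1 decoy receptor gene, rose 1.48-fold and Il1rl2, the IL-36 receptor gene, fell by 0.70 on the log2 scale (edgeR adjusted p = 0.0137 and 0.0105). Il1r1 and Il18rap did not pass (edgeR adjusted p = 0.149 and 0.378). Without KO_339 both Il1r2 (log2 change 0.58) and Il1rl2 (-0.61) missed the threshold, and Il1r2 did so without KO_345 (0.52).

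Relative to the WT mean, the members followed different mice. Cpa3 stood at 2.24, 1.72 and 1.27 times the WT mean in KO_339, KO_340 and KO_345, Ms4a2 at 1.93, 1.65 and 1.22, Prss34 at 1.82, 1.64 and 1.39 and Mcpt8 at 1.66, 1.42 and 1.15. In these 4 genes KO_345 was the lowest KO library, as it was for Hdc (2.22, 2.13 and 1.99). Fcer1a (1.71, 1.37 and 1.45) and Il1rl1 (1.62, 1.35 and 1.62) had KO_340 lowest instead. Cma1 stood at 5.11, 1.06 and 3.55 times the WT mean, Mcpt4 at 4.44, 1.01 and 4.71 and Tpsb2 at 8.86, 2.60 and 9.48, with KO_340 lowest in each. As a description over 6 libraries that share genotype, Pearson's r of log2 CPM was 0.907 to 0.992 among Cpa3, Mcpt8, Ms4a2, Fcer1a and Prss34, and 0.919 to 0.947 among Cma1, Mcpt4 and Tpsb2. Between these sets it was 0.390 to 0.803, the highest being that of Fcer1a with Cma1. Both sets were formed after the values were seen.

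**Figure D4:**
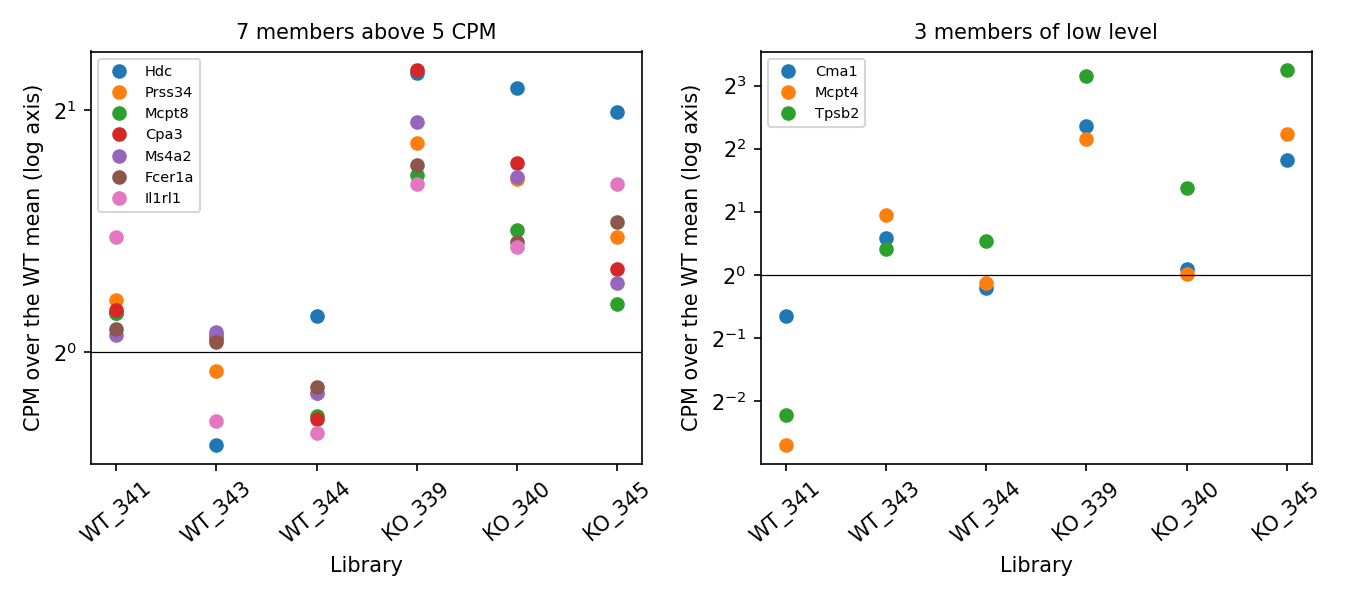
CPM of each gene over its own WT mean (log axis) by library, for the 7 genes above 5 CPM (left) and the 3 of low level (right). KO_340 lies at 1.06 for Cma1 and 1.01 for Mcpt4, while KO_339 and KO_345 lie at 3.55 or higher for all 3 genes on the right.

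Among 11649 other named genes with a mean of at least 1 CPM, those most like a member over the 6 libraries by Pearson's r of log2 CPM were Gabarap (0.998), Jak2 (0.992) and Ms4a2 (0.992) for Cpa3, and Cpa3 (0.992), Jak2 (0.991) and Nfyb (0.989) for Mcpt8. For Ms4a2 they were Cpa3 (0.992), Myl12b (0.991) and Ckap5 (0.989). Prss34 was closest to Gadd45a (0.996), Hdc to Abtb2 (0.999), Fcer1a to Rnd1 (0.997), Il1rl1 to Sgms1 (0.998) and Cma1 to Col5a2 (0.993). With 6 points and a genotype difference shared by many genes, such values are reached by many pairs.

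Per kilobase of merged exons, levels in WT libraries descended from Prss34 (54.8 ± 7.82 CPM per kb) through Mcpt8 (47.2 ± 6.95), Hdc (29.7 ± 5.98), Cpa3 (20.2 ± 3.14), Ms4a2 (9.46 ± 0.892), Fcer1a (5.93 ± 0.499), Il1rl1 (2.68 ± 0.895) and Cma1 (0.942 ± 0.425) to Mcpt4 (0.0474 ± 0.0422) and Tpsb2 (0.0238 ± 0.0163; SD, n = 3 each). Of these neighbours, Prss34 and Mcpt8 overlapped, as did Mcpt4 and Tpsb2, and the lowest Hdc and the highest Cpa3 library were both at 22.8. In KO libraries the first 8 genes kept this order, from Prss34 (88.5 ± 11.9 CPM per kb) and Mcpt8 (66.5 ± 12.1) to Hdc (62.9 ± 3.45) and Cpa3 (35.2 ± 9.78). There Mcpt8 overlapped with both Prss34 and Hdc, and Il1rl1 (4.10 ± 0.419) with Cma1 (3.05 ± 1.93). Merged exons include minor isoforms, so the per-kilobase level of Hdc, Il1rl1 and Ms4a2 is a low estimate.

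Granule and lipid mediator genes were compared with the 16.0% of all genes tested that rose and the 19.9% that fell. Of 16 listed genes of granule storage and maturation, 15 were tested, 4 rose and 1 fell, with a median log2 change of 0.21 (7 higher and 3 lower without WT_341). Rab27b, a small GTPase of granule exit, rose 3.55-fold from 1.91 to 2.75 CPM in WT to 5.88 to 12.2 CPM in KO libraries (edgeR adjusted p = 0.00583). The heparan sulfate enzyme gene Ndst1 rose 1.36-fold, Ext1 rose 1.29-fold, and Srgn, the core protein of granule proteoglycan in mast cells and other myeloid cells, fell by 0.71 on the log2 scale. Ndst2, on the same list, overlapped between groups and did not pass (log2 change 0.21 ± 0.12, SE; edgeR adjusted p = 0.202). Of 8 lipid mediator genes, 3 rose and none fell (median log2 change 0.27). Ltc4s, the leukotriene C4 synthase gene, rose 2.82-fold from 0.278 to 0.523 CPM in WT to 1.06 to 1.27 CPM in KO libraries (edgeR adjusted p = 0.0106), and held under all 13 alternatives. Alox5 (2.24-fold) and Alox5ap (1.30-fold), which start leukotriene synthesis in neutrophils as well, lost their calls without WT_344 or any 1 KO library, and Alox5ap also without WT_343. With no low-count filter 1 of the 8 rose, as also without WT_344 or any 1 KO library.

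Of 18 transcription factors of mast cell and basophil development, 7 rose and 3 fell (median log2 change 0.30), against 16.0% and 19.9% of all genes tested, so the share lower was not above that of all genes. Without KO_339 or KO_345 the number higher was 4, and the number lower was 1 without KO_339 and 5 without WT_341. Gata2 rose 2.66-fold, from 23.0, 20.1 and 24.9 CPM in WT to 55.6, 50.5 and 75.1 CPM in KO libraries (edgeR adjusted p = 0.00306). Ikzf2 (1.92-fold) and Lmo4 (1.46-fold) also rose. Gata1, at 8.75 to 20.04 CPM in WT and 13.6 to 22.5 CPM in KO libraries, overlapped between groups and did not pass (edgeR adjusted p = 0.298). Irf8, which directs progenitors to monocytes and is needed for basophils, fell from 77.9 to 118 CPM in WT to 37.3 to 45.1 CPM in KO libraries (edgeR adjusted p = 0.00327). Mitf, the regulator of mast cell granule genes, fell by 0.49 on the log2 scale (edgeR adjusted p = 0.0432).

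Of 13 growth factor and cytokine receptor genes, 2 rose and 1 fell (median log2 change 0.27), or 4 and 1 without WT_341. Neither share exceeded that over all genes tested (16.0% higher and 19.9% lower). Il18r1 and Il5ra (2.12-fold) rose, and Csf2rb, the common beta chain for IL-3, GM-CSF and IL-5, fell from 300.2 to 307 CPM in WT to 216 to 227 CPM in KO libraries (edgeR adjusted p = 0.00419). Crlf2, the TSLP receptor gene, did not pass (edgeR adjusted p = 0.0732), but did with upper-quartile factors, library totals only, DESeq2 and without WT_344. Of 13 listed surface markers, 10 were tested, 6 rose and none fell (median log2 change 0.40), and 3 rose without WT_344, KO_339 or KO_340. Itga2, which encodes the CD49b chain, rose 2.36-fold to 2.61 to 3.12 CPM, Adora3 rose 2.10-fold and Cd9 rose 2.60-fold. Itgam (1.72-fold) and Cd34 (1.30-fold) are also among the 6. Enpp3 (0.796-fold), Ccr3 (0.986-fold) and Itgb7 (1.05-fold) did not pass (edgeR adjusted p = 0.662, 0.976 and 0.571). Cd69 rose 1.23-fold, a call lost without any 1 library except WT_341. The basophil marker Cd200r3 was at 1.72, 1.60 and 1.47 CPM in WT and 2.33, 1.81 and 2.28 CPM in KO libraries (edgeR adjusted p = 0.121), and Mrgprb2, a receptor of connective tissue mast cells, was below the filter.

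Of 10 listed cytokines, 8 were tested, 2 rose and none fell (median log2 change 0.38). Of all genes tested, 16.0% rose and 19.9% fell, so the share higher was near that of all genes. The number of cytokines higher was 4 without WT_341 (22.1% of all genes tested). It was 1 without WT_343, WT_344, KO_339 or KO_345 (6.54% to 10.7% of all genes). Il4, a cytokine made by basophils, rose 1.98-fold from 0.323 to 0.495 CPM in WT to 0.697 to 0.932 CPM in KO libraries (edgeR adjusted p = 0.0303). Its call was lost without any 1 library except WT_341. Tnf, which many myeloid cells make, rose 2.35-fold (edgeR adjusted p = 0.0107) and held under all 13 alternatives. Il6 and Osm did not pass (edgeR adjusted p = 0.135 and 0.139), and Osm passed without WT_341.

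Markers of other cell types moved in the same libraries, and their part in the values above was not tested. Of all genes tested, 16.0% were higher and 19.9% lower. Counts of 1 or 2 of 8 markers lie near these shares. All 7 tested eosinophil genes rose, 1 of them (Il5ra) also on the receptor list, with a summed level of 1309 to 1829 CPM in WT and 3438 to 4077 CPM in KO libraries. Mature neutrophil genes summed to 11388 to 36146 CPM in WT and 43667 to 57343 CPM in KO libraries, with 4 of 10 higher, 10 without WT_341 and 0 without WT_344 or any 1 KO library. Granulocyte-macrophage progenitor genes, 5 of 6 lower, went from 16777 to 22205 CPM in WT to 8675 to 10533 CPM in KO libraries, and include Ctsg. Monocyte genes were lower in 4 of 6 cases (1465 to 1712 against 949 to 1001 CPM), megakaryocyte genes higher in 5 of 8 (44.7 to 66.0 against 103 to 151 CPM) and stem cell genes higher in 6 of 7 (59.8 to 66.1 against 88.5 to 127 CPM). Erythroid genes were lower in 1 of 8 cases (446 to 738 against 414 to 500.1 CPM), T and NK cell genes higher in 2 and lower in 1 of 8 (267 to 299.6 against 202 to 225 CPM), and B cell genes called in 0 of 6 (23.3 to 79.0 against 46.4 to 75.5 CPM). Monocyte calls became 2 without KO_339 or KO_340, megakaryocyte calls 3 without WT_343, KO_339 or KO_345, and T and NK cell genes called higher 1 without WT_344, KO_339 or KO_345. The median log2 change of the T and NK cell genes was 1.16, opposite in sign to their sum, which was mostly Nkg7 (261 to 292 CPM in WT and 181 to 216 CPM in KO libraries). The T cell markers Cd3e and Cd8a were under 1 CPM in all 6 libraries. WT_341 had the highest neutrophil, erythroid and B cell sums of the WT group. Without it 4 of 8 erythroid genes, 5 of 6 B cell genes and 8 of 10 members, Tpsb2 included, were higher. Of all genes tested, 22.1% were higher without WT_341.

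**Figure D5:**
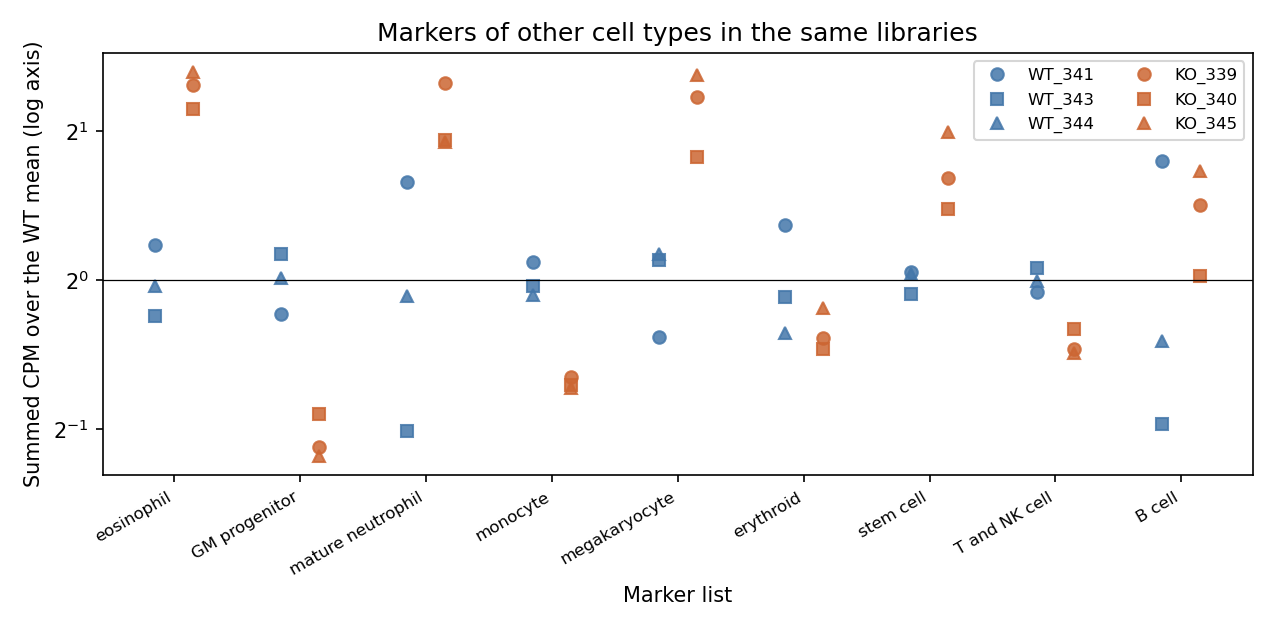
Summed CPM of each marker list over its WT mean (log axis), for WT (blue) and KO (orange) libraries. Eosinophil sums lie at 2.22 to 2.63 times the WT mean in KO libraries, and granulocyte-macrophage progenitor (GM progenitor) sums at 0.442 to 0.537.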

How the data were processed

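Per the labels, total RNA of individual mice was made into strand-specific messenger RNA libraries and sequenced as paired reads of 75 bases. The authors deposited 1 table of raw read counts per gene symbol, not normalized, and the tools named in the submitters' processing notes are STAR, HTSeq, Trimmomatic and FastQC (no versions), with the build mm10. The sources used here give neither the annotation nor the strand setting nor the treatment of multiply mapped reads.

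Groups came from sample titles. Counts were tested with edgeR 4.0.16 (R 4.3.3): filterByExpr with minimum count 10 and minimum total count 15, TMM factors, robust glmQLFit and glmQLFTest, with Benjamini-Hochberg adjustment over 15742 genes. The SE is the log2 change divided by the root of the F statistic. Alternatives used DESeq2 1.42.0, limma 3.58.1, other scaling and filters, sex, and each library left out. Tested on simulated data, it missed most of the smaller fold changes, and its share of false calls was above the threshold. The simulated data held far fewer changed genes than were called here, so these shares may differ for the real data. Positions and exons are from GENCODE M21 (GRCm38, the assembly of mm10), 1-based. Correlations used log2 CPM with a prior count of 2.

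The members and lists were chosen with earlier results of these data known. All members are named, with up to 4 genes of smallest p per list (3 for lists under 6 tested genes) and up to 3 genes most like each member with a mean of at least 1 CPM. Fcer1g, Il1rap, Il1r1, Il18rap, Kit, Gab2, Vav1, Ptpn6, Mitf, Gata1, Ext1, Ndst2, Cd200r3, Enpp3, Ccr3, Itgb7, Itgam, Cd34, Mrgprb2, Ppbp, Slamf1 and the untested locus genes were named after their values were seen.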

Additional observations from a re-analysis of the deposited data

How the results depend on the processing

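No paired analysis was possible because the groups share no replicate numbers. Tpsb2 is left out of the next count, since it entered the main test through KO libraries alone. The 9 other members (8 of 8 tested with at least 1 CPM in 3 libraries) had a positive log2 change under all 13 alternatives. Neither they nor the list genes named by the rule reversed, and genes named outside it were not followed. Members called higher, Tpsb2 included, were 7, against 9 with upper-quartile factors, 9 with DESeq2, 8 with library totals only, 8 with limma-voom and 6 with sex, with no filter or with the CPM filter. Leaving out 1 library gave 2 to 8 (2 without WT_344 or KO_339, 4 without WT_343) and 0 called lower. Over all genes, 2520 were higher and 3139 lower. Upper-quartile factors gave 3458 higher and 1931 lower, and library totals only 3151 and 2212, so 64.2% and 58.8% of calls were higher against 44.5%, as the median log2 change of all genes went from 0.01 to 0.15 and 0.11 and that of the members from 0.75 to 0.88 and 0.84. Leaving out 1 library gave 1039 to 3573 higher and 1263 to 4306 lower (1430 and 1840 without WT_344, 1039 and 1263 without KO_339, 1652 and 1664 without KO_340, 1321 and 1645 without KO_345). These fits use fewer samples. Depth limits Mcpt4 and Tpsb2, with 98 and 127 counts in all.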

Other observations

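Il13, a cytokine of mast cells and basophils, was below the low-count filter and not tested. It was at 0, 0.00633 and 0.00688 CPM in WT_341, WT_343 and WT_344 and at 0.0754, 0.0303 and 0.0749 CPM in KO_339, KO_340 and KO_345. It was picked out after its values were seen.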
